A study of Mus musculus with 20 samples.

Results

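Wild-type mouse cones sorted from the retina were followed over 5 ages, in the 10 wild-type libraries among the 20 RNA-seq libraries of the series, 2 at each of postnatal days 30, 40, 50, 60 and 90 (P30 to P90). Genes of the light response stood among the highest over these libraries, and 195 genes were higher and 108 lower at P90 than at P30. The genes described are the 11641 of 23077 gene symbols whose mean was at least 5 CPM over these 10 libraries, where CPM is a gene's count as parts per 1e6 of its library's total, before any scaling. CPM elsewhere is this value after TMM scaling, which sets libraries on a common scale from the bulk of their genes.

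All 10 libraries came from C57BL/6 retina labelled wild type (D4-cre/Ai9 tdTomato). D4-cre is a Cre recombinase driver that is active in cones, and Ai9 is a floxed reporter that then makes the red protein tdTomato, so that cones can be collected by fluorescence-activated sorting. The controls therefore also carried the Cre driver, and the protocol allows control animals with D4-cre alone beside those with D4-cre and Ai9. The other 10 libraries, from cones lacking Dgcr8, enter no result here apart from 1 alternative fit. Neither sex, nor the number of animals behind a library, nor the time of day of collection is given, and nothing in the labels ties the 2 libraries of an age to different animals. The p-values rest on the difference within such pairs, which may be no more than technical. Libraries were made from 150 ng of total RNA and sequenced in pools of 4, with RNA taken by either of 2 extraction methods. The labels do not say which libraries shared a pool or a method, so age, pool and method cannot be told apart.

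Cones are the photoreceptors of daylight and colour vision. Light activates a cone opsin, the opsin activates the G protein transducin, transducin relieves the inhibition of a phosphodiesterase, cyclic GMP falls and the cyclic GMP-gated channels of the outer segment close. Arrestin, a kinase, an RGS protein and calcium-sensing proteins then end the response, and the cell signals this through a ribbon synapse. Most mouse cones carry both the short-wave opsin gene Opn1sw and the medium-wave gene Opn1mw. Cones are a small minority beside rods, so rod RNA is the first foreign signal to look for in a cone sort.

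The promoters of the short-wave opsin gene and of 3 other photoreceptor genes with a homeodomain motif close to their start are shown because all 4 genes were among the 20 highest per length and all 4 were higher at P60 than at P50. The windows are the 250 bases before the RefSeq transcription start (build GRCm38.p6), written 5′ to 3′ on the gene's strand. Capitals mark GGATTA, the reverse complement of TAATCC, a motif bound by Crx and its relatives. Both strands were searched.
Opn1sw, chr6:29380514-29380763, reverse strand, short-wave opsin: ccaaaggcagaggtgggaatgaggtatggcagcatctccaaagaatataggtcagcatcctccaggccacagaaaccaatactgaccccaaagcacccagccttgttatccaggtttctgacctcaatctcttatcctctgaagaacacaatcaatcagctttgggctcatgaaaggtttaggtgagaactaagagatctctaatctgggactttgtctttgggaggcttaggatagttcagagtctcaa
Gnat2, chr3:108092816-108093065, forward strand, cone transducin alpha subunit: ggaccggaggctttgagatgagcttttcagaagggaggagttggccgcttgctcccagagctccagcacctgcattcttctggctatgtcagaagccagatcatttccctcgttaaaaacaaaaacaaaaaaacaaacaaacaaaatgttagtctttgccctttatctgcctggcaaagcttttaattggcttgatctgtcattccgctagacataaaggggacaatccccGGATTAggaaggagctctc
Guca1a, chr17:47400607-47400856, reverse strand, guanylate cyclase activator: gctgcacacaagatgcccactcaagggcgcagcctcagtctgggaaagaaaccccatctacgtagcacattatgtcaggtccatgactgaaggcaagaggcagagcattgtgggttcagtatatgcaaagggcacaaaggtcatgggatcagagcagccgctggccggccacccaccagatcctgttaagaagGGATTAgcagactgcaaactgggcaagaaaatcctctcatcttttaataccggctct
Rbp3, chr14:33953753-33954002, forward strand, retinoid carrier of the matrix around photoreceptors: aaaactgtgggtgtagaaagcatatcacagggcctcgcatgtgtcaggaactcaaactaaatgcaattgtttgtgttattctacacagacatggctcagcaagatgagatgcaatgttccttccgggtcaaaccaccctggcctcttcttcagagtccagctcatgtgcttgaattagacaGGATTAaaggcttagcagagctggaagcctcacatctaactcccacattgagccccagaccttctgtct
TAATCC was found on either strand in the windows of 3 of the 9 genes with a window among the 11 protein-coding genes of the 15 named for their level, which are the highest per kb once small nucleolar RNAs, microRNAs and gene models without a proper name are passed over, and in 6.25% of the 32851 windows of the same length in the table. Its first base lay 19 bases before the start in Gnat2, 57 in Guca1a and 69 in Rbp3, and the letters are not in the Opn1sw window. A match describes the letters of a window and not a bound site.

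Before the results, the libraries themselves differed. Library totals were between 2237624 and 4342360 counts except at P60, where they were 10373206 and 9821447. Summed counts in 1427 olfactory and vomeronasal receptor genes, which cones are not expected to use, were 1725 and 1668 at P30, 1509.8 and 1570.3 at P40, 633 and 643 at P50, 92.4 and 97.9 at P60, and 1075 and 762 at P90, as unscaled CPM. This measure was lowest at P60 and more than 6 times as high in every other library. Summed CPM over 14 rod markers, as a ratio to the sum over 10 cone markers, was 0.596 and 0.609 at P30, 0.814 and 0.833 at P40, 0.918 and 0.909 at P50, 0.427 and 0.431 at P60, and 0.882 and 0.745 at P90. The P60 libraries thus had the deepest sequencing, the least receptor signal and the smallest rod share, and the 3 properties cannot be told apart from age at P60. The 2 P90 libraries also differed from each other, with summed cone markers of 16509 and 19606 CPM. In bulk libraries, fewer cells of a type and less RNA per cell cannot be told apart. Counts of genes that vary are therefore also given without the P60 libraries.

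**Figure D1:**
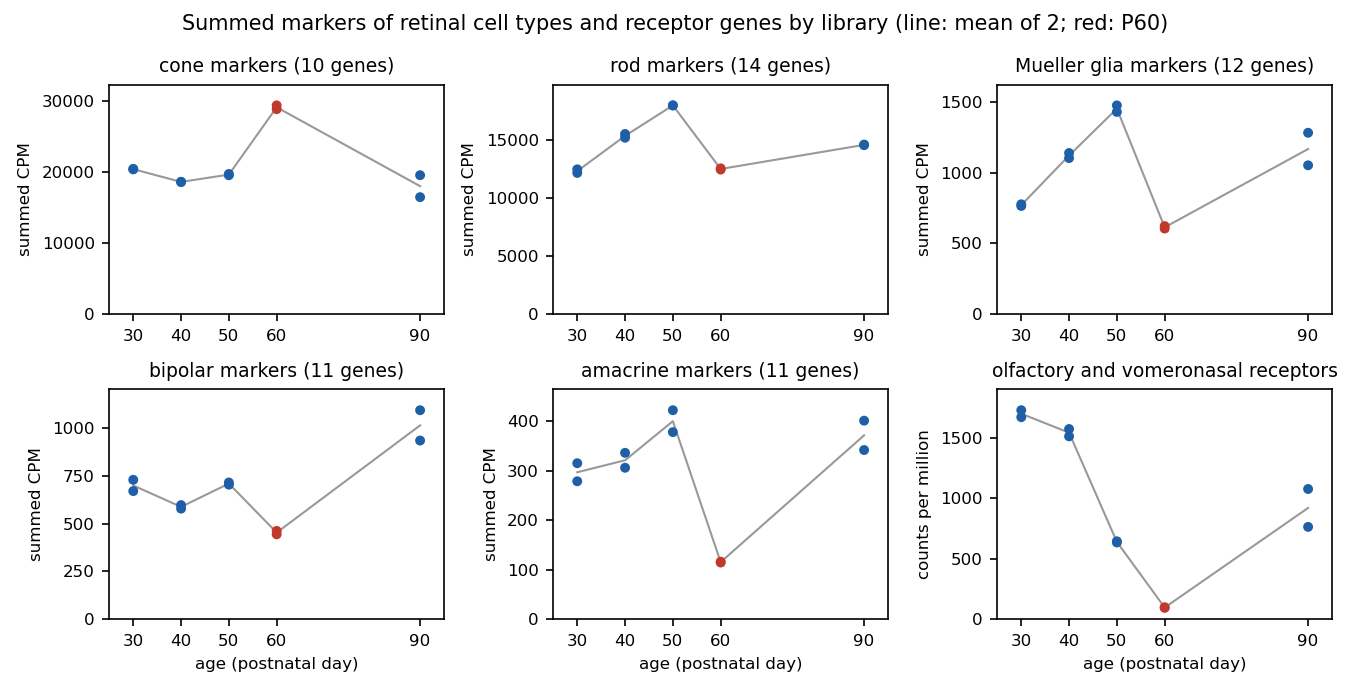
Summed CPM of the markers of 5 retinal cell types and unscaled CPM of olfactory and vomeronasal receptor genes (vertical axes) in each wild-type library by age in postnatal days (horizontal axes). Points are libraries, lines join the means of the 2 libraries of an age, and P60 is red: cone markers peaked at P60 while the other 5 sums were at or near their lowest there.

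The cell type label held for the leading genes, with other retinal cells present in the background. All 10 cone markers passed the filter on low values, and 7 of the 10 were among the 100 highest genes when CPM was divided by the merged exon length in kb, the only scale on which levels are compared between genes here. Merged length counts every annotated exon and so can understate the level of a gene with long rarely used exons (11482 genes have a length). The medium-wave opsin gene Opn1mw stood at 1001 CPM per kb, and 5 of the 14 rod markers were also among the 100 highest. Mueller glia, bipolar and amacrine markers had medians of 6.35, 10.9 and 4.65 CPM per kb over their members that passed the filter, near the 6.95 of all genes tested. Of 10 microglia markers 1 passed the filter, of 9 pigment epithelium markers 2 did, and no lens or erythrocyte marker did, with Hba-a2 at 0 counts in all 10 libraries and Cryaa at no more than 0.697 CPM.

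Short structured RNAs and the phototransduction genes headed the levels. Of the 11641 genes, 67 had a mean of at least 1000 CPM and 2239 of at least 100 CPM. Small nucleolar RNAs, 2 of them among the 5 highest per kb, are passed over here. The highest of the other genes were Rpph1, the RNA of ribonuclease P, at 14827 CPM per kb, the nuclear RNA Malat1 at 7206 and Rnu12, an RNA of the minor spliceosome, at 2904. Malat1 alone took between 4.25% and 5.55% of a library's counts. Opn1sw was the highest protein-coding gene, at 2077 CPM per kb, from a level of 5310.1 ± 1016 CPM (SD over the 10 libraries). It was followed by Guca1a at 1852 CPM per kb, Pde6c, the catalytic subunit of the cone phosphodiesterase, at 1439, and Pdc, phosducin, which binds the beta and gamma subunits of transducin, at 1239. Arr3, cone arrestin, stood at 1094 CPM per kb and Gnat2 at 985. Kcne2, an accessory subunit of potassium channels, is not part of the cascade and stood among them at 996. Prph2, which shapes the rims of outer segment discs, reached 869, Rbp3 756 and Rcvrn, the calcium sensor recoverin, 754.

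The cone cascade was present as a whole. Of 23 phototransduction genes, all 23 passed the filter, 13 were among the 100 highest per kb and 22 among the 1000 highest, with a median of 384 CPM per kb. The lowest was Gucy2f, a guanylate cyclase that is chiefly a rod gene, at 23.5. Both subunits of the cone channel were lower than Pde6c, with 120.0 CPM per kb for Cnga3 and 153 for Cngb3. Of 31 synapse genes, all tested, 18 were among the 1000 highest, led by the complexin Cplx4 at 503 and synaptophysin, Syp, at 424. Of 21 tested genes of glycolysis and lactate handling, 14 were, led by pyruvate kinase, Pkm, at 426. Gapdh, the glycolytic dehydrogenase with many processed copies in the genome, did not pass the filter, with 102 counts over all 10 libraries, and such a count is uncertain. Among 24 tested transcription factors of photoreceptors, Crx, which drives photoreceptor genes, was highest at 379, then Neurod1 at 162 and the thyroid hormone receptor Thrb, which sets medium-wave opsin identity, at 112. Nrl, which specifies rods, stood at 35.5. Cplx4, Syp, Neurod1 and Thrb were chosen for naming after their levels were seen. Dgcr8, the microRNA processing factor that the other libraries of the series lack, was at 92.6 ± 7.85 CPM (SD, n = 10) and did not pass the test between ages (edgeR F test, adjusted p = 0.639).

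Between P30 and P90 few genes were called, and a gene that was not called is not shown to be unchanged. By edgeR's quasi-likelihood test with Benjamini-Hochberg adjustment, 195 genes were higher at P90 (1.68% of those tested) and 108 were lower (0.928%) at an adjusted p under 0.05. The median log2 fold change over all genes was -0.01. In this fit 1 estimate of the spread served all 5 ages, with 5 residual degrees of freedom. A test against a change of at least 1.5-fold left 1 gene higher and 3 lower. With the P60 libraries left out the counts were 207 (1.78%) and 131 (1.13%), and 290 genes were called both ways. The counts depended on single libraries: without the first P30 library they were 63 and 59, without the second 421 and 226, and without the first P90 library 159 and 43. Without 1 of the 4 P40 and P50 libraries they were 109 to 133 and 64 to 75. Of the 72 genes named here by the naming rule and called between these ages, 24 were called in all 10 fits that left out 1 library each, 39 lost the call without the first P30 library and 28 without the first P90 library. Scaling factors taken from genes of at least 32 CPM gave a nearly even split, 166 higher and 152 lower.

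Genes called higher at P90 had longer exons than those called lower. The median merged exon length was 8.52 kb for the genes higher at P90, 3.43 kb for those lower and 5.08 kb for all genes tested. The median log2 fold change from P30 to P90 rose over 5 equal groups of genes ordered by exon length from -0.12 in the shortest genes to 0.07 in the longest. When the length trend of each library was removed, 108 genes were called higher and 85 lower, and 176 genes were called both with and without it. Where a gene described as called between P30 and P90 loses its call in that fit, its adjusted p there is given.

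**Figure D2:**
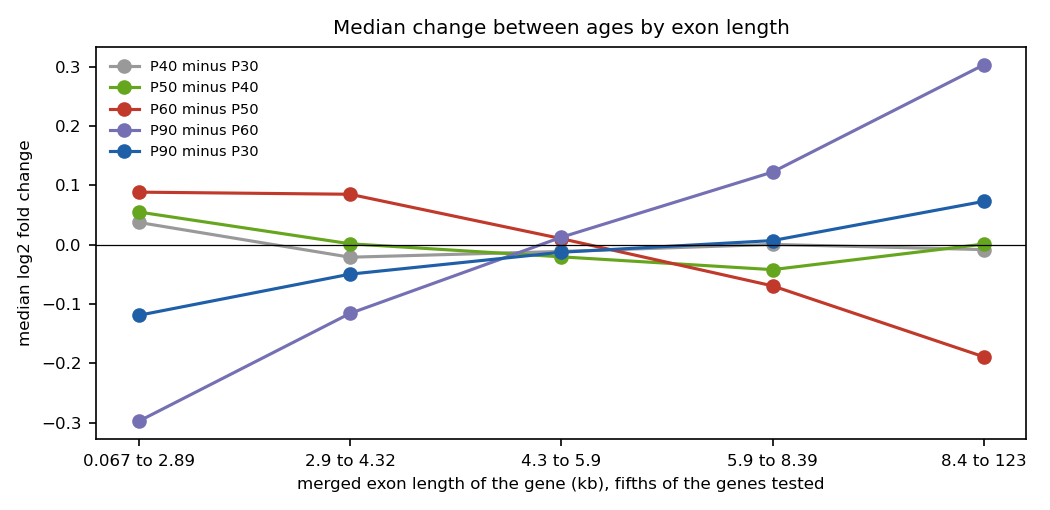
Median log2 fold change (vertical axis) of the genes in 5 equal groups by merged exon length in kb (horizontal axis), with 1 line per pair of ages. The lines of P90 minus P60 and P90 minus P30 climb with length, from -0.30 to 0.30 and from -0.12 to 0.07, and that of P60 minus P50 falls to -0.19.

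A small set of genes moved 1 way through all 5 ages. Of the genes called between P30 and P90, 13 had a higher fitted level at each later age and 3 a lower one, where 103 and 73 of all genes tested had such an order. The order of the means is a description, and most single steps did not pass the test. Syt1, the calcium sensor of synaptic vesicle release, had 887 and 974 CPM at P30, 916 and 993 at P40, 994 and 986 at P50, 1062 and 1165 at P60 and 1285 and 1268 at P90. The P90 libraries were the highest (log2 fold change 0.46 ± 0.08 (SE), adjusted p = 0.00204). Pcp4l1, a small relative of the calmodulin-binding protein Pcp4, had 13.9 and 27.9 CPM at P30, 34.9 and 28.9 at P40, 38.9 and 33.6 at P50, 35.2 and 40.2 at P60 and 51.4 and 63.1 at P90. The first P30 library was the lowest of all 10, and both P30 libraries lay below the others (log2 fold change 1.46 ± 0.26 (SE), adjusted p = 0.00214). Without the first P30 library Syt1 had a log2 fold change of 0.37 (adjusted p = 0.057) and Pcp4l1 one of 1.02 (adjusted p = 0.0632).

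**Figure D3:**
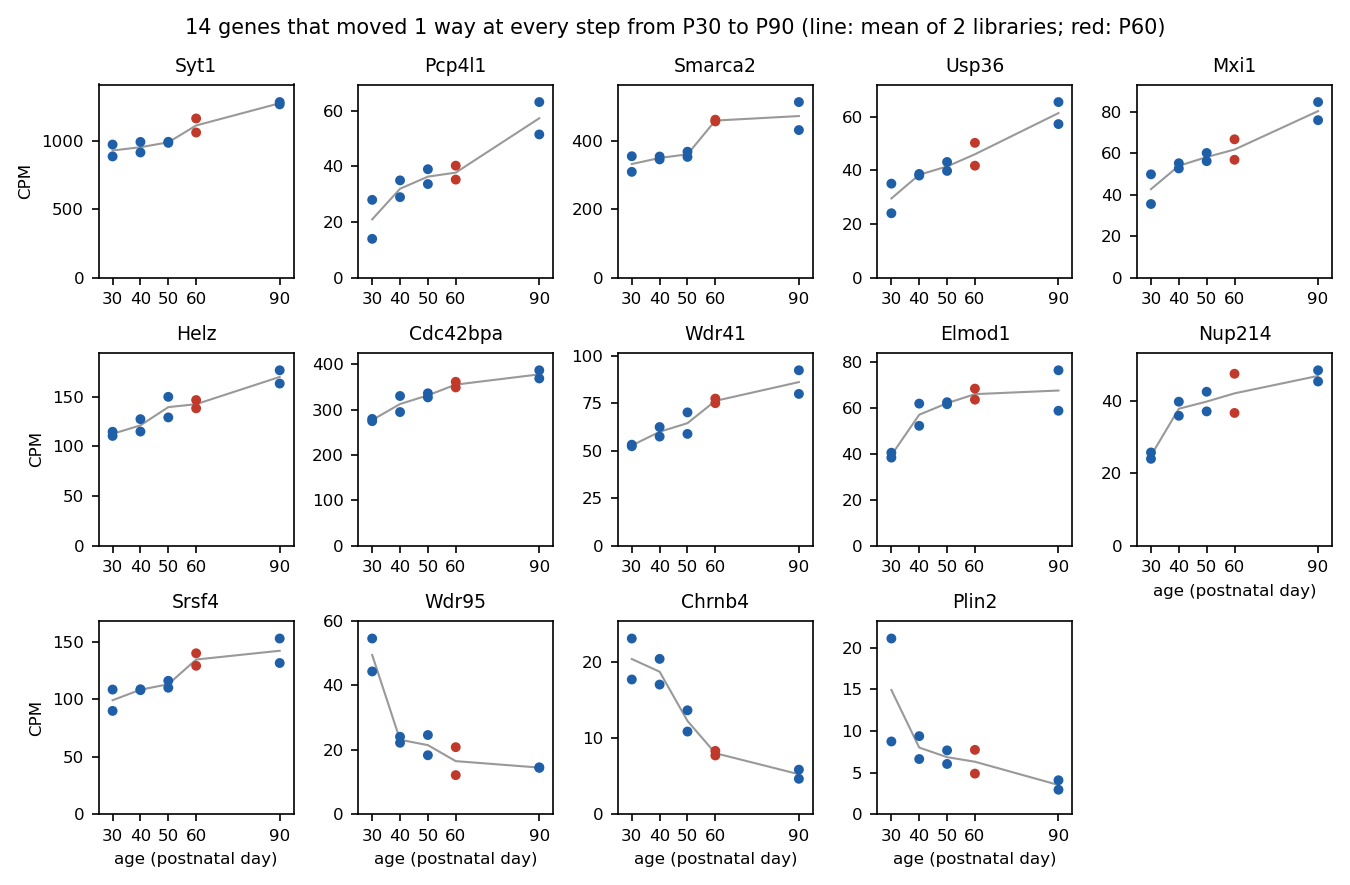
CPM (vertical axes) of 14 genes that moved 1 way at each step, by age in postnatal days (horizontal axes). Points are libraries, lines join the means of the 2 libraries of an age and P60 is red: Syt1 climbs from 887 and 974 CPM at P30 to 1285 and 1268 at P90, and Chrnb4 falls from 17.7 and 23.1 to 4.65 and 5.85.

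The other steady risers had larger p. Usp36, a nucleolar deubiquitinase, went from 35 and 24 CPM at P30 to 57.3 and 65.5 at P90 (log2 fold change 1.05 ± 0.22 (SE)), and Mxi1, a partner of Max that opposes Myc, from 35.5 and 49.8 to 84.6 and 75.8 (0.91 ± 0.19 (SE)). Smarca2, an ATPase of SWI/SNF chromatin remodelling, went from 310.4 and 356 CPM to 433 and 515, and Helz, an RNA helicase, from 111 and 115 to 163 and 177. Cdc42bpa, a kinase downstream of Cdc42, went from 274 and 279 CPM to 387 and 369. That the P30 and P90 libraries did not overlap in these 5 genes was a condition for naming them. Of all genes tested, 42.6% met this condition. With the length trend removed, the adjusted p was 0.0752 for Smarca2, 0.0801 for Helz and 0.203 for Cdc42bpa, and it stayed under 0.05 for Usp36 (0.0196) and Mxi1 (0.0186). Wdr41, Elmod1, Nup214 and Srsf4 had log2 fold changes of 0.71, 0.77, 0.91 and 0.52 with adjusted p between 0.0232 and 0.043. Nup214 and Srsf4 were called in only 2 and 2 of the 10 fits that each left out 1 library, Elmod1 in 5, and Nup214 had an adjusted p of 0.0622 with the length trend removed. Without the first P30 library, the adjusted p was 0.128 for Mxi1, 0.0871 for Helz, 0.096 for Smarca2, 0.0877 for Cdc42bpa and 0.096 for Wdr41, and without the second P90 library it was 0.0616 for Usp36.

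The 3 steady fallers had low levels. Wdr95 had 44.3 and 54.6 CPM at P30, 22.2 and 24 at P40, 24.6 and 18.3 at P50, 20.8 and 12.1 at P60 and 14.5 and 14.4 at P90. Its P30 libraries were above all others (log2 fold change -1.77 ± 0.30 (SE), adjusted p = 0.00111). Chrnb4, a beta subunit of nicotinic acetylcholine receptors, had 17.7 and 23.1 CPM at P30, 20.5 and 17.1 at P40, 13.7 and 10.9 at P50, 7.72 and 8.33 at P60 and 4.65 and 5.85 at P90. The P90 libraries were the lowest of all (log2 fold change -1.95 ± 0.41 (SE), adjusted p = 0.00786). Wdr95 was called in all 10 fits without 1 library, and Chrnb4 had an adjusted p of 0.0775 without the first P90 library. Plin2, a coat protein of lipid droplets, had 21.1 and 8.73 CPM at P30 and 4.07 and 2.93 at P90. The first P30 library was more than 2 times the second, and the call (adjusted p = 0.0486) held in 3 of the 10 fits without 1 library and gave 0.0663 with the length trend removed.

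Among the opsins, Opn1sw fell between P30 and P90 while Opn1mw did not pass the test. Opn1sw had 5812 and 5707 CPM at P30, 4849.6 and 4616 at P40, 4677 and 4646 at P50, 7013 and 6977 at P60 and 4328 and 4473 at P90. The P90 libraries were the lowest of all 10 and the P60 libraries the highest, with P30 next (log2 fold change -0.39 ± 0.06 (SE), adjusted p = 0.000608, a 1.31-fold decrease). The call held in all 10 fits without 1 library, in the fit without P60 (adjusted p = 0.00238) and with the length trend removed (0.00885), and scaling to the summed cone markers, of which Opn1sw is the largest, gave a log2 fold change of -0.20 with an adjusted p of 0.05002. Opn1mw had 1341 and 1596 CPM at P30, 1379 and 1386 at P40, 1449 and 1384 at P50, 2068 and 2204 at P60 and 1297 and 1533 at P90. Its P30 and P90 libraries overlapped (log2 fold change -0.05 ± 0.09 (SE), adjusted p = 0.819). The ratio of Opn1sw to Opn1mw counts within a library was 4.33 and 3.58 at P30, 3.52 and 3.33 at P40, 3.23 and 3.36 at P50, 3.39 and 3.17 at P60, and 3.34 and 2.92 at P90. The first P30 library had the highest ratio and the second P90 library the lowest. The difference between the 2 opsins' changes was not tested. Gngt2, the gamma subunit of cone transducin, had 859.8 and 1089 CPM at P30, 1046 and 1107 at P40, 1236 and 1318 at P50, 1334 and 1279 at P60 and 555 and 799 at P90. The P90 libraries were the lowest and apart from each other (log2 fold change -0.52 ± 0.12 (SE), adjusted p = 0.0132, but 0.0786 by DESeq2). Without the second P30 library its log2 fold change was -0.34 (adjusted p = 0.117) and without the first P90 library -0.29 (adjusted p = 0.141). Gnat2 and Gnb3, the alpha and beta subunits, had log2 fold changes of -0.24 ± 0.08 (SE) and -0.29 ± 0.09 (SE) and did not pass (adjusted p = 0.133 and 0.074). Scaled to the cone markers, the phototransduction list had 5 higher and 1 lower between P30 and P90, beside 7.50% and 0.447% of all genes.

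**Figure D4:**
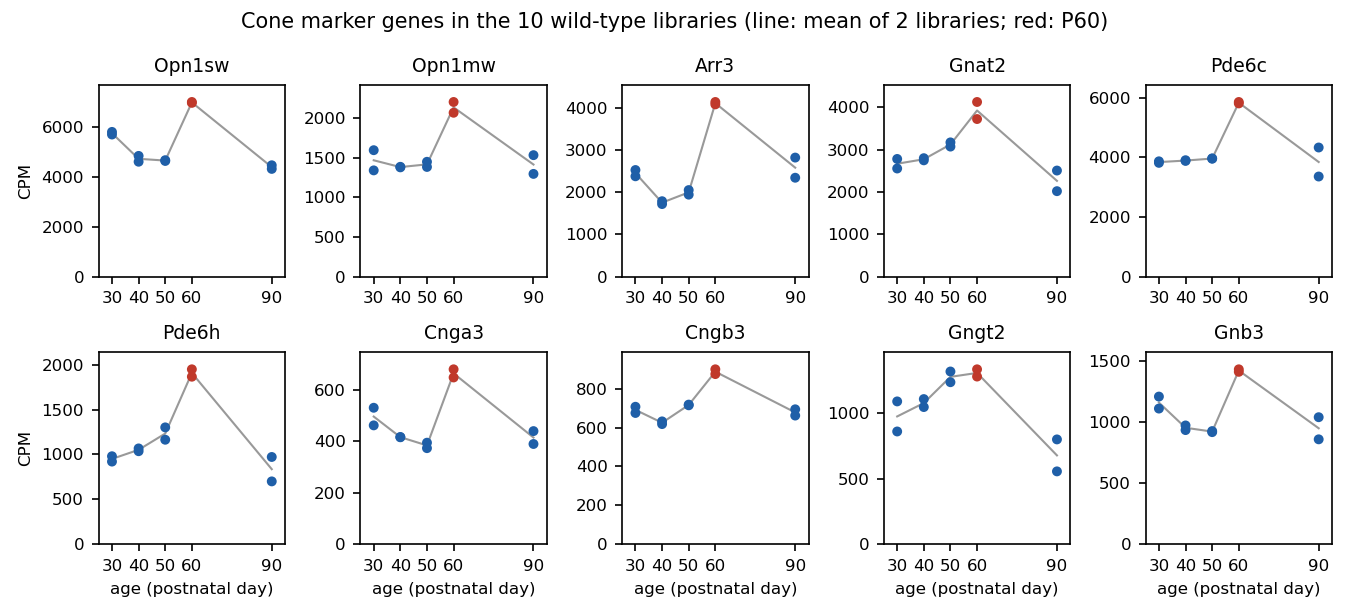
CPM (vertical axes) of the 10 cone markers in the 10 wild-type libraries by age in postnatal days (horizontal axes). Points are libraries, lines join the means of the 2 libraries of an age and P60 is red: Opn1sw goes from 5812 and 5707 CPM at P30 to 4328 and 4473 at P90, and 9 of the 10 genes were called higher at P60 than at P50.

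Over the whole phototransduction list, 2 higher and 3 lower of 23 were called from P30 to P90, beside 1.68% and 0.928% of all genes. The list had a median log2 fold change of -0.03 beside -0.01 for all genes. Besides Opn1sw and Gngt2, Rcvrn fell, from 757 and 768 CPM at P30 to 538 and 571 at P90. Its 8 earlier libraries were all above both P90 libraries (log2 fold change -0.46 ± 0.08 (SE), adjusted p = 0.00191), and it was called in all 10 fits without 1 library, as was Gucy2f. Gucy2f, 1 of the 2 higher members, had 122 and 118 CPM at P30, 214 and 219 at P40, 303 and 297 at P50, 95.6 and 107 at P60 and 245 and 187 at P90. The Gucy2f levels were highest at P50 and lowest at P60 and P30 (log2 fold change 0.84 ± 0.13 (SE), adjusted p = 0.000527), and the rod transducin gene Gnat1 was likewise highest at P50 and lowest at P60. The remaining 18 genes of the list did not pass, among them Pde6c at 0.00 ± 0.08 (SE), Cnga3 at -0.26 ± 0.10 (SE) and Cngb3 at -0.03 ± 0.08 (SE) on the log2 scale. The median ratio of the highest to the lowest age mean was 1.54 for the list and 1.54 for all genes.

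Among the 15 genes named for their level per kb, 4 others were called lower at P90 than at P30, and in all 4 the first P90 library was the lowest of the 10. Rpph1 had 5378 and 4857 CPM at P30, 4222 and 5169.9 at P40, 6589 and 5899.8 at P50, 4633 and 4554 at P60 and 1782 and 4211 at P90. The P90 libraries were the 2 lowest and the first of them lay far below the second (log2 fold change -0.77 ± 0.19 (SE), adjusted p = 0.0231). Rnu12 had 459 and 518 CPM at P30, 625 and 435 at P40, 686 and 489.9 at P50, 346 and 326 at P60 and 163 and 338 at P90. Its second P90 library lay within the P60 range (log2 fold change -0.96 ± 0.20 (SE), adjusted p = 0.00735). Rnu11, the other minor spliceosome RNA on the list, went from 112 and 121 CPM at P30 to 47.7 and 84.1 at P90 (log2 fold change -0.82 ± 0.18 (SE)), with an adjusted p of 0.0132 and of 0.0681 with the length trend removed. Kcne2 had 1913 and 1864 CPM at P30, 1613 and 1663 at P40, 1743 and 1709 at P50, 2211 and 2210.2 at P60 and 1050.3 and 1617 at P90. Again the second P90 library was close to the earlier ages (log2 fold change -0.50 ± 0.11 (SE), adjusted p = 0.0127). Without the first P90 library the log2 fold changes were -0.28 (adjusted p = 0.0702) for Rpph1, -0.53 (adjusted p = 0.11) for Rnu12, -0.47 (adjusted p = 0.181) for Rnu11 and -0.22 (adjusted p = 0.0538) for Kcne2. DESeq2 gave adjusted p of 0.246 for Rpph1, 0.125 for Rnu12 and 0.0814 for Kcne2. Malat1, Guca1a, Pde6c, Pdc, Arr3, Opn1mw, Gnat2, Prph2 and Rbp3 did not pass between P30 and P90, with log2 fold changes from -0.24 to 0.17.

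In the outer segment and its cilium, 2 of the genes tested in these lists fell and none rose from P30 to P90. Among all genes tested, 0.928% were called lower and 1.68% higher, so 1 of 50 cilium genes is near the general share. Impg2, a proteoglycan of the matrix around the outer segment, went from 1224 and 1268 CPM to 1018 and 989.7 (-0.31 ± 0.08 (SE), adjusted p = 0.0251), and was the only one of 18 outer segment genes called. Unc119, a carrier of lipid-modified transducin to the outer segment, went from 571 and 688 to 441 and 457 CPM (-0.49 ± 0.09 (SE), adjusted p = 0.00373), and was the only one of 50 cilium genes. Rdh12, a retinol dehydrogenase of the inner segment, was the only one of 9 tested retinoid genes called, from 454 and 365 CPM to 286 and 298 (-0.49 ± 0.10 (SE), adjusted p = 0.0093). Under scaling to the cone markers these 3 genes had log2 fold changes of -0.12, -0.30 and -0.30 and were not called. That scaling moved the median of all genes to 0.17 for P90 minus P30. Unc119 was called in all 10 fits without 1 library and Impg2 in 6, and Rdh12 had -0.34 (adjusted p = 0.144) without the first P30 library.

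At the synapse, 2 of 31 genes rose and none fell from P30 to P90, beside 1.68% higher and 0.928% lower of all genes. Syt1, described above, was 1 of the 2. The median of the 31 was 0.02. Sv2b, a synaptic vesicle protein abundant in photoreceptors, had 2045 and 2012 CPM at P30 and 1816 and 2012 at P90, and the ages overlapped (log2 fold change -0.08 ± 0.07 (SE)).

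Several clock genes rose from P30 to P90, and none of the list was called lower. With factors from genes of at least 32 CPM, 3 of the list were called higher and 0 lower, beside 166 and 152 of all genes. Of 21 tested clock genes, 5 higher and 0 lower were called, against 1.68% of all genes, and the list's median log2 fold change was 0.34. Hlf, a PAR-domain transcription factor under clock control, had 37.2 and 47.6 CPM at P30, 73.9 and 62 at P40, 81.1 and 89.2 at P50, 44 and 51.7 at P60 and 93.6 and 80.6 at P90. P30 was below P90 without overlap, and the P60 libraries lay close to those of P30 (log2 fold change 1.04 ± 0.19 (SE), adjusted p = 0.00202), and the call held in all 10 fits without 1 library. Per2, a core repressor of the clock, had 19.4 and 29.3 CPM at P30 and 51.1 and 45.8 at P90 (0.99 ± 0.25 (SE), adjusted p = 0.0300), a call that held in 3 of the 10 fits without 1 library. The nuclear receptor Nr1d2, which represses clock genes, went from 278 and 336 to 427 and 406 CPM (0.44 ± 0.10 (SE), adjusted p = 0.0184), and its relative Nr1d1, the remaining called member, named after its values were seen, from 21.1 and 57.6 to 80.5 and 84.9 (1.08 ± 0.29 (SE), adjusted p = 0.0466). Rorb, which is also on the list of photoreceptor transcription factors, went from 418 and 426 to 587 and 509.9 CPM (0.38 ± 0.10 (SE)) and lost its call with the length trend removed (adjusted p = 0.146). Nr1d2 had 0.29 (adjusted p = 0.241) without the first P30 library, and Rorb was called in 4 of the 10 fits. The animals lived in a 12-hour light-dark cycle, and the time of collection, which the labels do not give, cannot be told apart from age.

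Of 24 tested transcription factors of photoreceptors, 5 higher and 0 lower were called from P30 to P90, beside 1.68% and 0.928% of all genes. Esrrb, an orphan nuclear receptor needed for rod survival, had 73.5 and 77.7 CPM at P30, 130.4 and 111 at P40, 139 and 129.8 at P50, 47.5 and 48.9 at P60 and 133 and 124 at P90. The P30 and P60 libraries were the low ones (log2 fold change 0.76 ± 0.15 (SE), adjusted p = 0.00343), as they were for the summed rod markers. Mef2d and Mef2c, which act with Crx at photoreceptor genes, went from 182 and 193 to 237 and 298 CPM (0.52 ± 0.13 (SE)) and from 89.1 and 83.4 to 127 and 128 CPM (0.57 ± 0.14 (SE)), and Mef2c had an adjusted p of 0.131 with the length trend removed. Esrrb was called in all 10 fits without 1 library, Mef2d in 6 and Mef2c in 5. Rorb and Nr1d1 are the other 2. Crx had 951 and 1153 CPM at P30, 1131 and 1073 at P40, 1041 and 995 at P50, 1536 and 1616 at P60 and 1138 and 1336 at P90. Its P30 and P90 libraries overlapped and it did not pass (log2 fold change 0.23 ± 0.09 (SE), adjusted p = 0.185).

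Relative to the bulk of genes, the metabolic genes called from P30 to P90 were all lower, and scaled to the cone markers glycolysis had 2 higher and 1 lower and oxidative phosphorylation 1 and 1. Among all genes tested, 1.68% were called higher and 0.928% lower between these ages. Of 21 tested genes of glycolysis and lactate handling, 0 higher and 3 lower were called, with a median of -0.17. Pkm had 2549.8 and 2166 CPM at P30, 1957 and 1920.2 at P40, 1978 and 2088 at P50, 2593 and 2539.8 at P60 and 1688 and 1803 at P90. The 2 P90 libraries were the lowest (log2 fold change -0.43 ± 0.08 (SE), adjusted p = 0.00196). Pgk1, phosphoglycerate kinase, went from 211 and 230.1 to 136 and 150.1 CPM (-0.62 ± 0.11 (SE)) and Tpi1, triosephosphate isomerase, from 268 and 282 to 181 and 222 (-0.45 ± 0.11 (SE)). Of 76 tested genes of oxidative phosphorylation, 0 higher and 3 lower were called, with a median of -0.17: Cox4i1 (-0.70) and Cox7a2 (-0.81) of cytochrome oxidase and Uqcrc2 (-0.56) of complex III. Mdh1, cytosolic malate dehydrogenase, was the 1 called of 24 genes on the citric acid cycle list (-0.37 ± 0.10 (SE)). Tpi1, Cox7a2, Uqcrc2 and Mdh1 had adjusted p of 0.0699, 0.0667, 0.0687 and 0.127 with the length trend removed. Pgk1 was called in all 10 fits without 1 library, Cox4i1 and Cox7a2 in 8 and 8, Uqcrc2 in 7, Tpi1 in 4 and Mdh1 in 5, and Pkm had -0.33 (adjusted p = 0.0512) without the first P30 library.

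Single members of other lists passed, a share near that of all genes in the longer lists. Of 7 tested genes of retinal stress and gliosis, 0 higher and 1 lower were called, beside 1.68% and 0.928% of all genes. Jund, an AP-1 subunit and the only one called of 14 tested immediate early genes, went from 44.3 and 33.6 CPM at P30 to 17.1 and 13 at P90 (log2 fold change -1.37 ± 0.28 (SE), adjusted p = 0.00681). Rpl23a was the only one called of 77 tested ribosomal protein genes, from 8.87 and 7.86 to 18.6 and 27.4 (log2 fold change 1.46 ± 0.34 (SE), adjusted p = 0.0158), and it has many processed copies in the genome, so its count is uncertain. Without the first P30 library the adjusted p was 0.0823 for Jund and 0.0727 for Rpl23a. In the microRNA pathway Eif2c2, which encodes Argonaute 2, was the 1 called of 17, from 37.2 and 62.4 to 94.5 and 72.9 CPM (0.75 ± 0.20 (SE)), and it held in 3 of the 10 fits without 1 library and had an adjusted p of 0.121 with the length trend removed. The lists of heat shock, unfolded protein response, cholesterol synthesis, immature neuron wiring, antioxidant, interferon and apoptosis genes, 122 tested genes in all, had 0 calls between P30 and P90 by edgeR. Of these 122, 17 had an unadjusted p under 0.05 (6 higher, 11 lower), a share that was not counted over all genes. DESeq2 called 4 of the 122, among them Dnajb1, Hsph1 and Ncam1, named for that count. Over all 11641 genes DESeq2 called 237 higher and 144 lower.

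RNA of other retinal cells differed between P30 and P90 beside these changes, where 1.68% of all genes were called higher and 0.928% lower. Rod markers had 9 higher and 0 lower of 14 called, with a median log2 fold change of 0.48, and their sum was 12171 and 12479 CPM at P30 and 14561 and 14612 at P90. Gnat1, rod transducin alpha, had 825 and 954 CPM at P30, 1363 and 1298 at P40, 1609 and 1541 at P50, 681 and 767 at P60 and 1295 and 1196 at P90. It was lowest at P60 and highest at P50 (log2 fold change 0.49 ± 0.09 (SE), adjusted p = 0.00191). Gnb1, the beta subunit that rod transducin uses, had 481 and 549 CPM at P30, 941 and 967 at P40, 1256 and 1276 at P50, 334 and 364 at P60 and 797 and 789 at P90, again lowest at P60 and P30 (log2 fold change 0.62 ± 0.09 (SE), adjusted p = 0.000233). Gnb1 was called in all 10 fits without 1 library, and without the first P30 library Gnat1 had 0.37 (adjusted p = 0.0725). The part of rod RNA in the changes of Gucy2f and Esrrb was not tested.

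Mueller glia and bipolar markers were also higher at P90. Of 11 tested Mueller glia markers, 4 higher and 0 lower were called, with glutamine synthetase, Glul, going from 338 and 355 CPM to 567 and 479.5 (0.59 ± 0.10 (SE)), Abca8a from 23.2 and 38.4 to 80.2 and 60.7, Apoe from 88.7 and 86 to 133 and 135 and Dkk3 from 136 and 113 to 214 and 159.9. The summed markers of Mueller glia were 764 and 776 CPM at P30 and 1051 and 1281 at P90. Of 11 bipolar markers, 4 higher and 0 lower were called, and their sum was 671 and 729.5 CPM at P30 and 935 and 1094 at P90. Trpm1, the transduction channel of ON bipolar cells, had 136 and 154 CPM at P30, 135 and 135 at P40, 157 and 147 at P50, 97.8 and 94.5 at P60 and 317 and 237 at P90. The 2 P90 libraries were above the others (log2 fold change 0.94 ± 0.13 (SE), adjusted p = 0.000265). Prkca, which marks rod bipolar cells, and Pcp2 had log2 fold changes of 0.75 and 1.12. Prox1, the 1 called of 4 tested horizontal cell markers, went from 50.3 and 61.6 to 116 and 110.4 CPM (1.02 ± 0.16 (SE)). Glul, Trpm1, Prkca and Prox1 were called in all 10 fits without 1 library, and Abca8a, Apoe, Dkk3 and Pcp2 in 8, 6, 6 and 7. No amacrine, ganglion cell, vessel, astrocyte, microglia or pigment epithelium marker was called by edgeR in P90 minus P30, and 0 were called by DESeq2. Of these 26 markers, 2 were under an unadjusted p of 0.05, a share that was not counted over all genes. The part of these cells in the rise of Syt1 and Pcp4l1, which other retinal neurons also express, was not tested.

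Sex-linked genes also differed between the ages. Xist, the RNA of the inactive X chromosome, had 529 and 643 CPM at P30, 13.1 and 13.6 at P40, 947 and 958 at P50, 634 and 697 at P60 and 1876 and 1334 at P90. The P40 libraries were far below all others and the P90 libraries the highest. Ddx3y on the Y chromosome had 111 and 155 CPM at P30, 144 and 124 at P40, 111 and 105 at P50, 118 and 126 at P60 and 59.9 and 67.9 at P90, and Eif2s3y 88.7 and 97.4 CPM at P30 and 36.3 and 35.9 at P90. Ddx3y was present in every library and lowest at P90 (log2 fold change -1.06 ± 0.16 (SE), adjusted p = 0.000455). Uty and Kdm5d had log2 fold changes of -1.12 and -1.21. The share of each sex in a library was not given and its part in the other changes was not tested.

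The successive steps were very unequal in the number of genes called. From P30 to P40, 21 genes were higher (0.180% of those tested) and 29 lower (0.249%). From P40 to P50, 5 were higher (0.0430%) and 9 lower (0.0773%). From P50 to P60 the counts were 1028 (8.83%) and 1975 (17.0%), and from P60 to P90 2251 (19.3%) and 1325 (11.4%). Without the P60 libraries in the fit, P40 minus P30 had 21 higher (0.180%) and 20 lower (0.172%), and P50 minus P40 4 (0.0344%) and 12 (0.103%). The last 2 steps share the P60 libraries, so their opposite directions are not independent. With scaling factors from genes of at least 32 CPM, the step into P60 had 618 higher and 2221 lower, and the step out of it 2650 and 741.

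**Figure D5:**
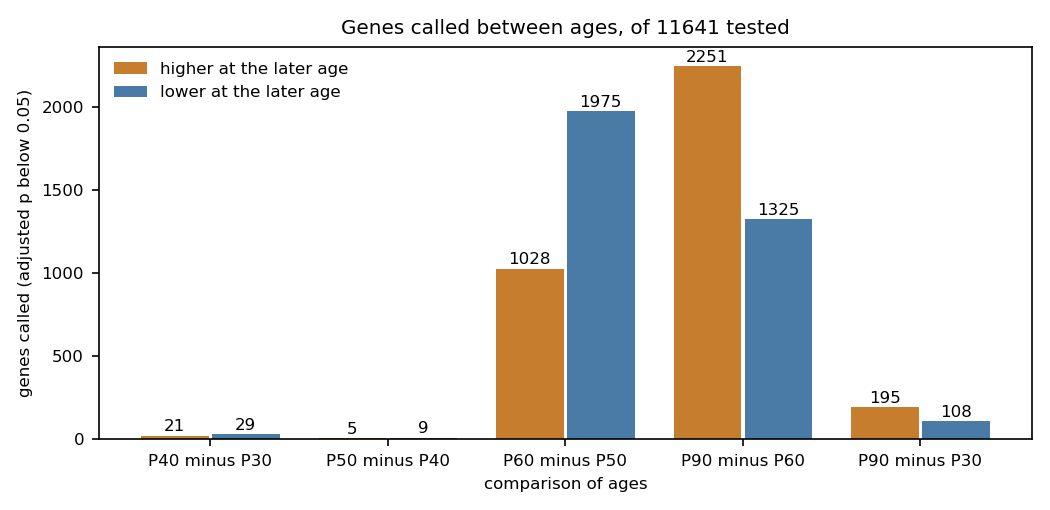
Number of genes (vertical axis) called at an adjusted p under 0.05 for each pair of ages (horizontal axis), higher at the later age in orange and lower in blue. Both steps that involve P60 have over 1000 genes in each direction, and the widest span, P90 minus P30, has 195 and 108.

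From P30 to P40, rod markers rose. Of the 14 rod markers, 7 higher and 0 lower were called, beside 0.180% and 0.249% of all genes. Gnb1 rose 1.85-fold (log2 fold change 0.89 ± 0.09 (SE), adjusted p = 9.60e-07), Gucy2f 1.8-fold (adjusted p = 0.00132), and the rod phosphodiesterase genes Pde6a and Pde6b by 0.58 and 0.55 on the log2 scale. The genes of smallest p that fell, after Xist, were Crocc, the rootlet protein of the cilium, Dmd, dystrophin, Cep290, a protein of the ciliary transition zone, and Snrnp70 of the U1 spliceosome particle. Crocc had 427 and 416 CPM at P30, 235 and 246 at P40, 245 and 244 at P50, 465 and 450.2 at P60 and 437 and 444 at P90. The 4 libraries of P40 and P50 were low and the other 6 were higher without overlap (P40 minus P30 -0.81 ± 0.10 (SE), adjusted p = 2.08e-05). Dmd, which has a retinal isoform at the photoreceptor terminal, had 2365 and 2330.5 CPM at P30, 1669.7 and 1773 at P40, 2381 and 2379.9 at P50, 2029 and 1984 at P60 and 2358 and 2365 at P90. The P40 libraries were the lowest, followed by those of P60, with a log2 fold change of -0.45 ± 0.07 (SE) into P40 and 0.47 ± 0.07 (SE) out of it (adjusted p = 0.00145 and 0.00116). Arr3 fell by 0.48 on the log2 scale (adjusted p = 0.00212). Without the second P30 library the step had 114 higher and 69 lower, and without the first P40 library 2 and 2.

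From P40 to P50, the 5 genes called higher were Xist, Dmd, Ddx3x, an X-linked RNA helicase, Gnb1 and Arhgap5, a GTPase-activating protein. Ddx3x had 876 and 842 CPM at P30, 625 and 674 at P40, 944 and 917 at P50, 1018 and 959 at P60 and 874 and 1009 at P90. Both P40 libraries were the lowest (log2 fold change 0.52 ± 0.09 (SE), adjusted p = 0.00437). Of the 9 called lower, Sfi1, a centrosome protein, had 147 and 182 CPM at P30, 163 and 171 at P40, 76.5 and 86.8 at P50, 38.7 and 44.1 at P60 and 126 and 108 at P90. P50 was well below P40 and P60 lower still (log2 fold change -1.03 ± 0.14 (SE), adjusted p = 0.000512). Ttn, the giant muscle protein titin, had 269 and 229 CPM at P30, 227 and 287 at P40, 115 and 109 at P50, 5.25 and 2.16 at P60 and 156 and 141 at P90. It went down with the receptor counts at P50 and P60 (log2 fold change -1.19 ± 0.16 (SE), adjusted p = 0.000271). The other 7 called lower were Cenpf, Csprs, Heatr7b1, Hjurp, Pisd-ps3, Tbx18 and Ugt1a6a. Pisd-ps3 is a pseudogene, Ugt1a6a shares exons with the other genes of its cluster and Csprs has related copies, so their counts are uncertain. Olfactory and vomeronasal receptor counts fell over this step too, and their part in these 9 genes was not tested.

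At P60 the cone markers stood highest relative to the bulk of genes, a direction that scaling to their own sum removes by construction. Of the 10 cone markers, 9 higher and 0 lower were called from P50 to P60, with a median log2 fold change of 0.59, and 0 higher and 10 lower from P60 to P90, with -0.67. Among all genes tested, 8.83% were called higher and 17.0% lower into P60, and 19.3% and 11.4% out of it. Arr3 had 2524 and 2376 CPM at P30, 1719 and 1786 at P40, 1942 and 2049 at P50, 4133 and 4076 at P60 and 2342 and 2818 at P90. Both P60 libraries were far above the other 8 (log2 fold change 1.04 ± 0.08 (SE), adjusted p = 4.55e-10). Pde6h, the inhibitory subunit of the cone phosphodiesterase, had 919.7 and 979 CPM at P30, 1035 and 1066 at P40, 1163 and 1301 at P50, 1948 and 1866 at P60 and 699 and 971 at P90. It too was highest at P60 (log2 fold change -1.19 ± 0.10 (SE), adjusted p = 5.42e-09 for P90 minus P60). Opn1sw rose 1.5-fold into P60 and Rbp3 1.59-fold, 2 of the genes whose promoters are printed above. The other 2, Gnat2 and Guca1a, rose 1.26-fold and 1.23-fold (adjusted p = 0.0036 and 0.00708).

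Markers of the other retinal cell types were lower at P60. From P50 to P60, rod markers had 1 higher and 11 lower of 14, Mueller glia markers 0 higher and 11 lower of 11, bipolar markers 0 higher and 6 lower of 11 and amacrine markers 0 higher and 8 lower of 10. Their median log2 fold changes were -1.04, -1.89, -0.66 and -2.20, beside -0.0048 for all genes, of which 8.83% were called higher and 17.0% lower. Calb2, calretinin, an amacrine and ganglion cell protein, had 48.1 and 46.3 CPM at P30, 64.2 and 71.8 at P40, 102 and 97.4 at P50, 17.7 and 18.8 at P60 and 62.5 and 46.3 at P90. The P60 libraries were the lowest (log2 fold change -2.44 ± 0.18 (SE), adjusted p = 3.95e-10). The amacrine transcription factor Tfap2b had 69.1 and 81.8 CPM at P50 and 8.96 and 11.9 at P60. From P60 to P90 the same 4 lists had 10 higher and 2 lower, 11 higher and 0 lower, 10 higher and 0 lower and 9 higher and 0 lower. Among all genes tested, 19.3% were higher and 11.4% lower over that step.

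Some of the genes of smallest p were nearly absent at P60. Heatr7b1 had 50.3 and 49.8 CPM at P30, 40.3 and 47 at P40, 17.2 and 16.6 at P50, 0 and 0 at P60 and 25.6 and 27.9 at P90. Against a floor of 3 counts in a P60 library (0.324 CPM), it was at least 52-fold higher at P50 and at least 82.5-fold higher at P90. Tbx18, a transcription factor, was also at 0 in both P60 libraries and at least 15.6-fold higher at P90. Ttn went from 115 and 109 CPM at P50 to 5.25 and 2.16 at P60 and 156 and 141 at P90. Cenpf, a centromere protein of dividing cells, had 38.9 and 48.5 CPM at P30 and 0.309 and 0.108 at P60. Mki67, which also marks dividing cells, had 27.9 and 31.4 CPM at P30 and 0 and 0.108 at P60. Neb, the muscle protein nebulin, had 0 and 0.541 CPM at P60 and 29.9 and 25 at P90, and Hmcn1, a matrix protein, 0.824 and 0.865 and 27.9 and 20.5. The receptor counts, which cones are not expected to hold, followed the same course, and their part in these genes was not tested. Meg3 and Snhg11, long noncoding RNAs of neurons, fell by 1.64 and 2.73 on the log2 scale into P60 and rose by 1.97 and 2.43 out of it.

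Relative to the bulk of genes, chaperone and stress genes were higher at P60 than at P50. Relative to the cones' own markers, 2 of the unfolded protein list, 0 of the heat shock list and 3 immediate early genes were called higher. Of 22 tested genes of the unfolded protein and integrated stress response, 13 higher and 0 lower were called, with a median log2 fold change of 0.49. Of 14 tested cytosolic heat shock genes, 6 higher and 0 lower were called, with 0.40, where 8.83% of all genes were higher and 17.0% lower. Hspa5, the chief chaperone of the endoplasmic reticulum, had 788 and 677 CPM at P30, 552 and 529.5 at P40, 535 and 561 at P50, 1334 and 1189 at P60 and 838 and 849 at P90. Both P60 libraries were above the other 8 (log2 fold change 1.20 ± 0.09 (SE), adjusted p = 3.92e-10). Hspa8, a constitutive cytosolic chaperone, had 921 and 943 CPM at P50 and 1430.0 and 1314 at P60 (0.56 ± 0.11 (SE)). Immediate early genes had 4 higher and 0 lower of 14, with Btg2 going from 268 and 259 to 480.0 and 502 CPM. Scaling to the summed cone markers moves all genes down together, to a median of -0.57, with 0.395% of genes called higher and 53.7% lower. Under it the unfolded protein list had 2 higher and 7 lower, the heat shock list 0 and 4 and the immediate early genes 3 and 3, and these calls carry that common shift. Other genes of small p that rose into P60 were Plec, the linker protein plectin, with a log2 fold change of 1.28, Osbpl3, an oxysterol-binding protein, at 1.33, and Pygm, a glycogen phosphorylase, at 0.90.

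From P60 to P90, genes of oxidative phosphorylation and the citric acid cycle fell relative to the bulk of genes. Among all genes tested, 11.4% were called lower and 19.3% higher over this step. Of 76 genes of oxidative phosphorylation, 0 higher and 37 lower were called, with a median log2 fold change of -0.50, and of 24 citric acid cycle genes 0 higher and 11 lower, with -0.36. Of 77 ribosomal protein genes 0 higher and 20 lower were, with -0.39. These lists hold many short genes, and with the length trend removed 13 oxidative phosphorylation and 3 ribosomal protein genes were called lower, beside 12.4% of all genes in that fit, so that the share of the ribosomal list was below that of all genes. Scaling to the cone markers moves all genes up together, to a median of 0.70, with 63.2% of genes called higher and 0.0601% lower. Under it the lists had 8 and 16 higher and 0 lower in both, calls that carry that common shift. Laptm4b, a lysosomal membrane protein, and Prnp, the prion protein, were among the genes of smallest p that fell, by 0.81 and 0.80 on the log2 scale.

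Over all 5 ages, 4124 genes passed the F test (35.4% of those tested), and without the P60 libraries 735 did (6.31%). Of the 4124, the lowest age mean was at P60 for 2110 and the highest for 1340, so P60 was an extreme of most of them. P30 was the highest age for 903 and P90 for 702. Of the 23 phototransduction genes, 22 passed with P60 and 12 without it. Of the 22 tested stress response genes the numbers were 18 and 2, of the 14 heat shock genes 11 and 1, and of the 14 rod markers 13 and 11. Xist, Ttn, Gnb1, Csprs, Snhg11, Heatr7b1, Ugt1a6a, Meg3, Arr3 and Cenpf were the 10 named genes of smallest p. Of all genes tested, 5331 (45.8%) had all 5 age means within 1.5-fold of each other and 8623 (74.1%) within 2-fold.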

How the data were processed

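Total RNA of sorted cones was made into strand-marking low-input libraries after removal of ribosomal RNA and sequenced on a HiSeq 2000, per the labels' protocols. The values deposited by the authors are whole-number counts per gene symbol and library, on mm10 (GRCm38) with CASAVA 1.8.0 per the submitters' processing notes. Not given in the sources used here are the aligner, the counting tool and its strand setting. 2 rows with no gene name were left out.

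Counts were fitted with edgeR 4.0.16 (R 4.3.3, quasi-likelihood test, TMM factors, 5 age coefficients, 10 libraries), with Benjamini-Hochberg adjustment over 11641 genes and a threshold of 0.05. Standard errors are the log2 fold change over the root of F. The fit was tested on simulated data for P90 minus P30. It recovered 52% of 100 changes of 2-fold and 28% of 100 changes of 1.5-fold, with 6 false calls. Lengths are merged exons of GENCODE M21, matched by symbol for 11482 of the genes. Alternatives were DESeq2 1.42.0, other scalings and filters, all 20 libraries, a replicate block, a linear trend, a 1.5-fold threshold and each library left out. The cone-marker scaling, the filter of 32 CPM, the length correction and the pairwise comparisons without P60 were added after seeing the data.

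Passing over small nucleolar and Cajal body RNAs, microRNAs and gene models without a proper name, named genes are the 15 highest per kb, up to 12 genes per direction called between P30 and P90 with 4 steps of the same sign and no overlap of those ages, the 10 of smallest F test p, 4 per direction at each step, and up to 6 per list, plus cone markers, Crx, Dgcr8 and sex-linked genes. A few genes so chosen are left unreported here. The members and lists were chosen with earlier results of these data known.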

Additional observations from a re-analysis of the deposited data

How the results depend on the processing

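Counts of called genes and the calls of single genes both depended on the fit, on measures that are not comparable with each other. Of the counts of called genes recomputed under alternatives, 131 stayed within 1.5 times the main count and 90 did not. Over 72 named genes with a call, 1282 of 1577 recomputed values kept direction and call, 295 lost the call and 0 reversed. The cause of each move was not tested unless a setting tests fewer genes or samples.

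Genes that vary over the 5 ages numbered 4124, and 7796 with edgeR's own filter of low counts (16534 genes), 1829 over the 5700 genes of at least 32 CPM, 735 without P60 and 7223 scaled to the cone markers. In what follows, pairs are genes higher and lower at the later age. With edgeR's filter they were 250 and 64 for P90 minus P30, 18 and 17 for P40 minus P30, 52 and 10 for P50 minus P40, 1380 and 4244 for P60 minus P50 and 4894 and 2043 for P90 minus P60. Over genes of at least 32 CPM, the 4 steps had 27 and 44, 3 and 6, 544 and 653 and 913 and 677. Scaled to the cone markers, P90 minus P30 had 873 and 52 and the steps 44 and 7, 4 and 9, 46 and 6255 and 7359 and 7, with medians of all genes at 0.17 for P90 minus P30, 0.13 for P40 minus P30, -0.57 for P60 minus P50 and 0.70 for P90 minus P60. With factors from genes of at least 32 CPM the counts were 166 and 152, 3 and 9 for P50 minus P40, 618 and 2221 for P60 minus P50 and 2650 and 741 for P90 minus P60, and the share higher in P90 minus P30 moved from 64.4% to 52.2%. RLE factors gave 3 and 9 for P50 minus P40. DESeq2 gave 39 and 74 for P40 minus P30 and 94 and 4 for P50 minus P40. With all 20 libraries in the fit, P90 minus P30 had 427 and 212, P40 minus P30 61 and 97 and P50 minus P40 75 and 17. For P90 minus P30, a linear trend over age called 384 and 390, a 1.5-fold threshold 1 and 3 and removal of the length trend 108 and 85. With the replicate block P90 minus P30 had 179 and 97 and P50 minus P40 3 and 6. Deviations of same-numbered libraries had correlations from -0.040 to 0.043 between ages. Whether same-numbered libraries shared a pool, an extraction method or animals was not tested.
Leaving out each library in turn gave 2975 to 5049 genes over the 5 ages. For P90 minus P30 it gave 63 to 421 higher and 43 to 226 lower, for P40 minus P30 2 to 114 and 2 to 69, for P50 minus P40 1 to 70 and 0 to 14, for P60 minus P50 475 to 1295 and 1398 to 2155, and for P90 minus P60 1561 to 2454 and 704 to 1600. An age left with 1 library was assumed to vary like the others. P40 minus P30 had 10/16 without the first and 114/69 without the second P30 library, 2/2 and 6/6 without those of P40, 10/14 and 10/12 without those of P50, and 32/65 and 31/65 without those of P90. P50 minus P40 had 10/10 and 16/10 without those of P30, 1/4 and 1/0 without those of P40, 1/0 and 1/1 without those of P50, 3/10 without either of P60, and 70/14 and 70/13 without those of P90. P60 minus P50 had 491/1398 and 475/1414 without the P50 libraries and 642/1639 and 664/1725 without those of P60, and P90 minus P60 1828/822 without the first P60 library and 1561/704 without the first P90 library.
DESeq2 did not call Gngt2 (0.0786), Kcne2 or the short RNAs Rpph1 and Rnu12 between P30 and P90. Depths of 2237624 to 10373206 counts and 2 libraries per age limit what P90 minus P30 and the smaller steps could show, and few calls there do not show that the ages are alike.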
